A study of Mus musculus with 21 samples.

Results

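Round sperm, germ cells that have left meiosis with a haploid genome, were compared with mouse embryonic fibroblasts (MEF), a somatic cell of connective tissue. The members were taken from the sample titles alone: the 3 arrays titled round sperm and the 3 titled MEF, which make 6 of the 21 expression arrays of the series. The other 15 arrays, 3 for each of 5 lines, held haploid and diploid embryonic stem (ES) cells and are used here only to show where a gene stood in another kind of cell. The round sperm came from 129 Sv mice, were freshly isolated from testis and had been sorted by flow cytometry for haploid DNA content in G0/G1. The MEF had a CD1 background and were grown in DMEM with 10% serum, and no sort was stated for them. No allele, transgene or drug was given for either group, nor the sex or age of the donors, whether animals were pooled, or how pure the sort was. Strain, culture, sorting and cell type therefore differ together and cannot be told apart. The replicates were labelled as biological, without a statement of which animals or cultures they came from.

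A round sperm cell has finished meiosis and carries a single set of chromosomes, with either an X or a Y. It still transcribes its genome for some days, builds the acrosome (the enzyme-filled cap used at fertilization) and the flagellum, and stores RNA for the proteins that later replace histones and compact the nucleus. A fibroblast secretes and remodels collagen matrix, adheres through actin cables and divides in culture, so its abundant RNAs serve quite different structures.

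Each value below is log2 of the array signal plus an offset, for 1 probe set chosen per gene, and a difference is round sperm minus MEF on that scale with its standard error (SE). A gene passed where the adjusted p was under 0.05 and the change at least 2-fold. A group was called near background where its mean lay at or below the mean of its arrays' 40th percentiles, 5.503 in round sperm and 5.44 in MEF, and a fold against such a group is given as a lower bound. The folds of Bgn, Ccl2, Cdt1, Cenpa, Col3a1, Ddx25, Gapdhs and Thy1 are uncertain too, because 1 array of the dim group (2 for Thy1) lay at or below its own 40th percentile although the mean lay above. Levels are compared between groups for the same gene, not between genes.

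The difference between these cells was broad. Of 14531 genes tested, 10990 (75.6%) passed, 5281 (36.3%) higher and 5709 (39.3%) lower in round sperm. The 3 values of round sperm and the 3 of MEF did not overlap for 13004 genes (89.5%). Such shares are the background against which every count below is to be read. MEF was near background for 2730 of the genes tested and round sperm for 1912. A gene near background in 1 group passed the filter on low values through the other group alone. The filter thus largely fixed its direction, and counts of such genes in 1 direction are no independent support. The median difference over all genes was -0.12, and it became 0.19 when arrays were quantile normalized. For 1800 genes (12.4%) the 95% interval of the difference lay within 2-fold in either direction.

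The sizes were not symmetric. A rise of at least 64-fold was fitted for 999 genes and a fall of that size for 436, and at 256-fold the counts were 464 and 70. In 861 of the 999 rises MEF was near background, so the fitted size of those rises depends on the floor of the array. Round sperm was near background in 275 of the 436 falls.

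**Figure D1:**
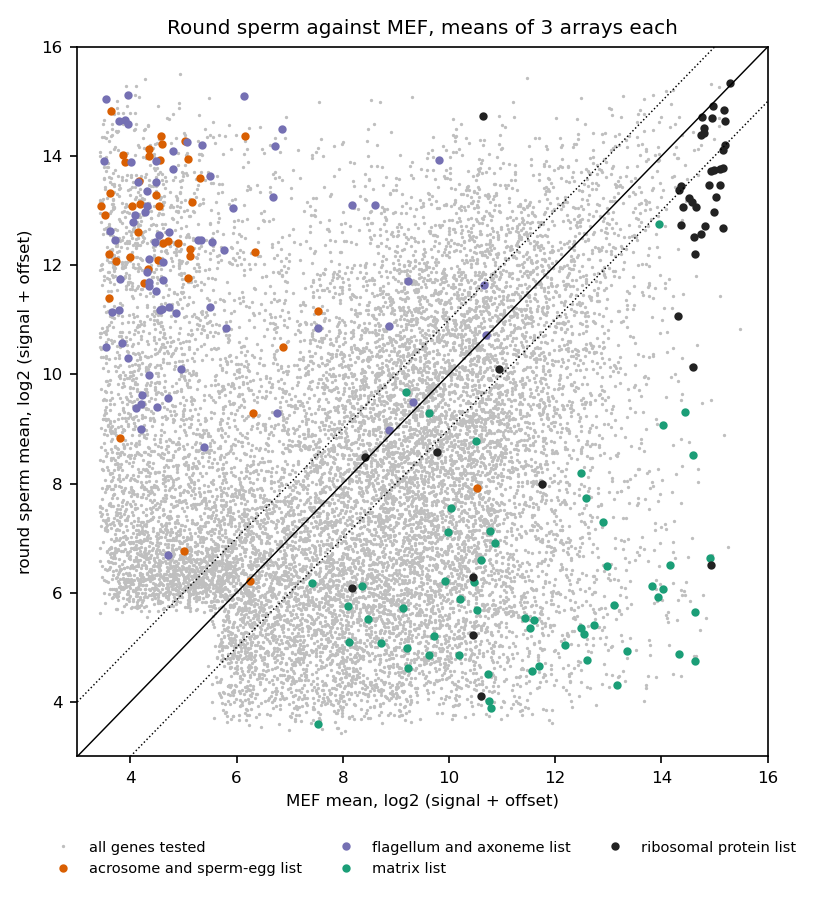
Mean of the 3 round sperm arrays against the mean of the 3 MEF arrays for each of 14531 genes tested, both as log2 (signal + offset). The solid line marks equal values and the dotted lines 2-fold. Most acrosome and flagellum genes lie at the upper left, most matrix genes at the lower right, and ribosomal protein genes mostly below the line of equality at high MEF values.

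RNA quality and array quality moved with the groups. The Actb 3′ minus 5′ log2 difference, which grows as RNA is degraded or its copying cut short, was 1.002, 0.7053 and 0.5029 in round sperm replicates 1, 2 and 3 and 0.2782 to 0.3897 in MEF. The Gapdh difference was 0.6943, 0.5847 and 0.3702 in round sperm and -0.2315 to -0.1585 in MEF. Mean log2 signal of the poly-A spike controls was 7.011, 8.374 and 7.632 in round sperm and 8.506 to 8.752 in MEF. The within-group SD of a gene had a median of 0.245 in round sperm and 0.135 in MEF, and round sperm replicate 1 stood apart from the other arrays of its group. Without that array, 5290 genes were higher and 5741 lower, and no list below changed by more than 1 gene in either count. The part of RNA quality in single differences was not tested.

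The proteins that replace histones gave some of the clearest contrasts. Prm1, a protamine that packs the DNA of the sperm head, had values of 14.86, 15.17 and 15.33 in round sperm and 3.98, 3.91 and 4.37 in MEF. Its difference was 11.03 ± 0.17 (SE, n = 3 arrays in each group, adjusted p = 1.05e-09), at least 820-fold because MEF was near background. Tnp1, a transition protein that holds DNA between histones and protamines, had values of 14.90, 15.40 and 15.54 against 3.45, 3.56 and 4.72. No MEF array came near any round sperm array for either gene, and replicate 1 was the lowest of the round sperm in both. Prm2 was at least 922-fold higher (11.19 ± 0.25), Tnp2 at least 762-fold (11.27 ± 0.22), Tnp1 at least 916-fold (11.37 ± 0.34) and Hils1, a linker histone of spermatids, at least 654-fold (11.03 ± 0.17). Signals of this brightness lie close to the top of the arrays' range, whose highest values were 15.47 to 15.66 in round sperm, so the sizes may be compressed.

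Of 16 tested genes of the nuclear condensation list, 14 rose and 1 fell, while 1 did not pass. The median difference was 9.0 against -0.12 over all genes tested. MEF was near background in 11 of the 16. The lower gene was Rnf8, a ubiquitin ligase that also acts in DNA repair in somatic cells, at 7.25 ± 0.08 (SD) against 9.66 ± 0.14. Epc1, a subunit of a histone acetyltransferase complex, differed by -0.22 and did not pass. Brdt, a testis reader of acetylated histones, was at least 294-fold higher (9.88 ± 0.25). Cdyl, a chromodomain protein, is counted among the higher genes on 1 probe set (5.66 ± 0.18), while its other 2 probe sets were lower (-4.59 ± 0.30 and -4.52 ± 0.24).

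The stretches before the start sites of the 2 genes with the best known spermatid promoters are shown because the transcription factor Crem is known to act there through sequences related to the cAMP response element (CRE). Each is the 150 bases just before the RefSeq start in GRCm38.p6, on the minus strand and written in the direction of the gene. Prm1 lies at chr16:10796824-10796973 and Tnp1 at chr1:73015900-73016049. Capitals mark letters that match TGANNTCA, an open form of the CRE.
Prm1: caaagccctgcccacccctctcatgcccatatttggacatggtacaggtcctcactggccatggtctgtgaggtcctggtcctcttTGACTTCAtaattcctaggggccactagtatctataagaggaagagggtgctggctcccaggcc
Tnp1: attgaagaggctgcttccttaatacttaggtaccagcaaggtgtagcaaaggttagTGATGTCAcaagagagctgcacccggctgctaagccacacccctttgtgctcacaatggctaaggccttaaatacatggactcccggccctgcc
The match begins 64 bases before the start of Prm1 and 94 bases before that of Tnp1. The same stretch before Prm2 and before Tnp2 held no match.

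Crem itself was higher. The CREM protein exists in activating and repressing forms made from different exons, and the activating form is known from spermatids. Crem had values of 13.17, 13.31 and 13.30 in round sperm and 5.76, 5.06 and 4.89 in MEF, a rise of at least 213-fold (8.02 ± 0.22, adjusted p = 9.14e-09). That was true of 1 of its 3 probe sets; the other 2 differed by 0.83 ± 0.29 and 0.09 ± 0.21 and did not pass. Fhl5, a LIM protein that activates CREM in testis, was at least 294-fold higher (8.65 ± 0.27). Rfx2, a transcription factor of cilia and spermatid genes, was at least 92.4-fold higher (8.13 ± 0.20), with 11.91, 11.97 and 12.03 in round sperm and 3.72, 3.63 and 4.17 in MEF. Spz1, a testis basic helix-loop-helix protein, was at least 532-fold higher (10.84 ± 0.18).

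Forms of the general transcription machinery known from germ cells were higher too. Tbpl1, a relative of the TATA-binding protein, rose 20.8-fold (4.38 ± 0.11) on 1 probe set and was lower on its other probe set (-3.03 ± 0.19). Gtf2a1l, a TFIIA subunit, was at least 432-fold higher (9.82 ± 0.35), and Taf7l, a TFIID subunit on the X chromosome, at least 20.8-fold higher (4.79 ± 0.31). Papolb, a cytoplasmic poly(A) polymerase, was at least 291-fold higher (9.13 ± 0.43), and Pabpc2, a poly(A)-binding protein, was at 14.63, 14.59 and 14.66 against 5.74, 5.39 and 5.51. The MEF values of Pabpc2 lie at the floor, so no fold is given. Ddx25, a helicase needed to translate stored spermatid messages, was 472-fold higher (8.88 ± 0.27) and the RNA-binding Ybx2 at least 217-fold higher (8.68 ± 0.44).

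Over the list of transcription and RNA regulators of spermatids, 23 of 30 tested genes were higher, 2 were lower and 5 did not pass (median 5.48). The lower genes, Celf1 (-5.37 ± 0.09) and Elavl1 (-4.78 ± 0.15), are RNA-binding proteins that most cells make. Dazl, a germ cell translational regulator, had values of 8.61, 9.19 and 9.03 in round sperm and was near background in MEF, a rise of at least 11.3-fold. It was also present in ES cells, with means of 9.95 in haploid and 9.22 in diploid lines. Among the 5 that did not pass were Mybl1 at 0.33 and Ybx1 at 0.67.

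**Figure D2:**
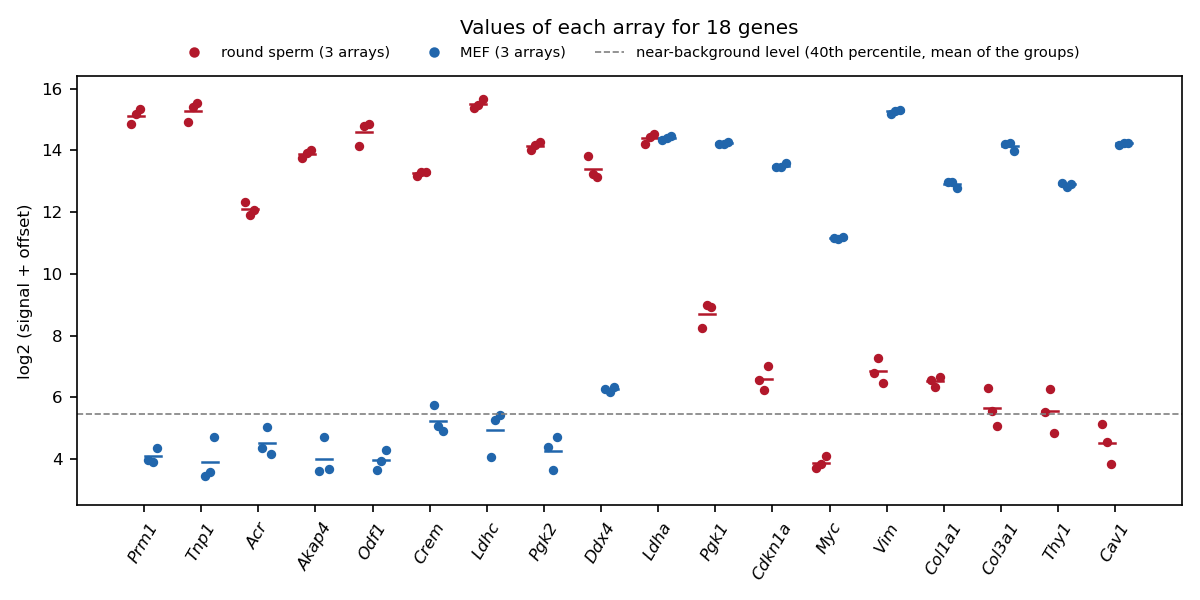
Values of the 3 round sperm arrays (red) and 3 MEF arrays (blue) for 18 genes as log2 (signal + offset), with horizontal bars for group means; the dashed line is the near-background level. Germ cell genes from Prm1 to Ddx4 are high in all round sperm arrays, Ldha overlaps, and genes from Pgk1 to Cav1 are higher in all MEF arrays.

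The acrosome and sperm-egg interaction list rose almost throughout, with 41 of 43 tested genes higher, 1 lower and 1 not passing (median 8.28). MEF was near background in 36 of the 43, where a fall could hardly be called. Acr, the acrosomal protease acrosin, had values of 12.34, 11.91 and 12.07 in round sperm and 4.35, 5.03 and 4.17 in MEF, at least 102-fold higher (7.59 ± 0.25). Crisp2, a cysteine-rich secretory protein of the acrosome and tail, was at least 667-fold higher (11.19 ± 0.13). The membrane proteins Adam2 and Adam3, needed by sperm to reach and bind the egg, were at least 415-fold (9.78 ± 0.25) and at least 383-fold (10.17 ± 0.17) higher, and Lyzl6, a lysozyme-like protein, at least 351-fold (9.99 ± 0.23). Gopc, a Golgi protein that most cells express and that acrosome formation needs, was lower (-2.60 ± 0.19), and Adam4 differed by -0.05.

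Genes of the flagellum behaved alike. Akap4, the main protein of the fibrous sheath, encoded on the X chromosome, had values of 13.74, 13.91 and 14.02 against 3.62, 4.71 and 3.68, at least 349-fold higher (9.88 ± 0.28). Odf1, a protein of the outer dense fibres, had values of 14.12, 14.80 and 14.86 against 3.63, 3.94 and 4.29, at least 569-fold higher (10.64 ± 0.24). Both stood far outside the MEF values in every array. Akap3, the partner of Akap4 in the fibrous sheath, was at least 781-fold higher (11.51 ± 0.15) and Dnah8, an axonemal dynein heavy chain, at least 589-fold (10.86 ± 0.15). Dnah8 was not limited to germ cells in this series, with means of 10.99 in haploid and 10.33 in diploid ES lines.

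Of 74 tested flagellum and axoneme genes, 70 were higher, 0 were lower and 4 did not pass (median 7.16). By limma, 0 were lower at an unadjusted p under 0.05 either. Those 4 were Odf2 at 0.99, just under 2-fold, Ift81 at 0.18, Dnal1 at 0.12 and Ift20 at 0.03. With median-centred arrays 71 of the 74 were higher. MEF was near background in 53 of the 74, where a fall could hardly be called. In the list of elongating spermatids and sperm maturation, 47 of 48 tested genes were higher and 1, Odf2 again, did not pass (median 8.31). MEF was near background in 38 of these 48. Meig1, which the manchette of the elongating spermatid needs, was at least 824-fold higher (11.16 ± 0.34), Oaz3, a testis antizyme of polyamine synthesis, at least 598-fold (10.76 ± 0.16), and Klhl10, an adaptor of a spermatid ubiquitin ligase, at least 442-fold (9.76 ± 0.31). Genes of this list and of the nuclear condensation list were lower in round sperm replicate 1 than in the other 2 arrays. The mean over the list was 12.62, 13.08 and 13.10 for elongating spermatids and 12.26, 12.71 and 12.80 for nuclear condensation. The part of RNA quality in this was not tested. Some families here, such as Cypt and Tssk, have near-identical copies whose probes may not separate them.

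Signalling enzymes of the testis followed. Of 28 tested kinases and phosphatases, 24 rose, 3 did not pass and 1 fell (median 5.04). The testis-specific serine kinases Tssk2, Tssk3 and Tssk6 were at least 391-fold (10.22 ± 0.28), 249-fold (9.88 ± 0.24) and 176-fold (8.07 ± 0.52) higher. Stk33, a kinase needed for sperm tail assembly, was at least 202-fold higher (9.61 ± 0.15). Prkar2a, a regulatory subunit of protein kinase A, was lower (-6.11 ± 0.16), while the catalytic subunit Prkaca differed by 0.25 and did not pass.

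In energy metabolism, some related enzyme forms differed in opposite directions. Male germ cells are known for their own copies of glycolytic and mitochondrial enzymes, several of them autosomal copies of genes on the X chromosome. Ldhc, the testis lactate dehydrogenase, had values of 15.38, 15.48 and 15.66 in round sperm and 4.08, 5.28 and 5.43 in MEF, at least 1050-fold higher (10.58 ± 0.32). Ldha, the form of most tissues, had values of 14.21, 14.44 and 14.53 against 14.33, 14.39 and 14.47, so the 2 ranges overlapped and the difference was -0.01 ± 0.09. Pgk2, the germ cell phosphoglycerate kinase, stood at 14.01, 14.17 and 14.26 against 4.38, 3.64 and 4.72, at least 417-fold higher (9.90 ± 0.26). Its X-linked counterpart Pgk1 went the other way, with 8.23, 8.97 and 8.92 against 14.19, 14.22 and 14.27, 45.8-fold lower (-5.52 ± 0.19).

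Of 41 tested genes on the list of testis forms of metabolic enzymes, 31 were higher, 4 were lower and 6 did not pass (median 7.09). The lower members, Glud1 (-6.18 ± 0.15), Aldh2 (-4.93 ± 0.34), Sdhc (-3.26 ± 0.12) and Ckb (-2.38 ± 0.15), are broadly expressed enzymes, which the list also holds. The 31 higher genes were not sorted by breadth of expression. Gapdhs, the sperm glyceraldehyde-3-phosphate dehydrogenase, rose 384-fold (8.59 ± 0.28), Gk2, a glycerol kinase, at least 656-fold (10.93 ± 0.28) and Ldhal6b, a further lactate dehydrogenase copy, at least 565-fold (10.92 ± 0.12).

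Germ cell forms were then set beside their broadly expressed relatives in pairs of the same family, and both members were measured in 32 pairs. In 21 pairs the germ cell form was higher and the broad form lower. Over all genes tested, 36.3% were higher and 39.3% lower. The first members were chosen as known germ cell forms, so their rise is no independent result. In 5 pairs both were higher, in 5 the germ cell form was higher and the broad form did not pass, and in 1, Cstf2t with Cstf2, the germ cell form did not pass and the broad form was higher. The pyruvate dehydrogenase subunits Pdha2 and Pdha1 differed by 8.90 ± 0.28 and -6.41 ± 0.19, and the cytochromes Cyct and Cycs by 7.28 ± 0.31 and -4.70 ± 0.12. The glucose transporters Slc2a3 and Slc2a1 differed by 5.99 ± 0.09 and -6.06 ± 0.37, though Slc2a3 was also high in ES cells, at 14.76 and 14.78. Both members were higher for the transcription factors Tbpl1 and Tbp (4.38 ± 0.11 and 3.53 ± 0.14), Taf7l and Taf7, Gtf2a1l and Gtf2a1, for the calcineurin subunits Ppp3cc and Ppp3ca, and for the poly(A) polymerases Papolb and Papola. The broad form Cstf2 was higher on 1 probe set (2.62 ± 0.20) and lower on another (-3.73 ± 0.14), and the sign for Gtf2a1 also depended on the probe set.

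Some pairs of protein folding and quality control also differed in opposite directions. The chaperones Clgn and Calr3 were at least 275-fold (9.37 ± 0.15) and 71.6-fold (6.68 ± 0.39) higher while their relatives Canx and Calr were lower (-3.02 ± 0.15 and -1.35 ± 0.09). The heat shock proteins Hspa2 and Hspa1l rose 75.9-fold and at least 142-fold, while Hspa1b and Hspa8 were lower (-5.17 ± 0.46 and -5.40 ± 0.11). Psma8, the germ cell subunit of the proteasome core, was at least 35.9-fold higher (5.81 ± 0.18), and the subunit it replaces, Psma7, was lower (-4.87 ± 0.11). Psme4, the activator of the spermatid proteasome, rose 4.20-fold (2.07 ± 0.08). The whole proteasome and ubiquitin list showed no such rise. Of its 49 tested genes, 9 (18.4%) were higher, 18 (36.7%) were lower and 22 did not pass (median -0.52). Over all genes tested, 36.3% were higher and 39.3% lower. As the mean over probe sets, 5 of 48 were higher.

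**Figure D3:**
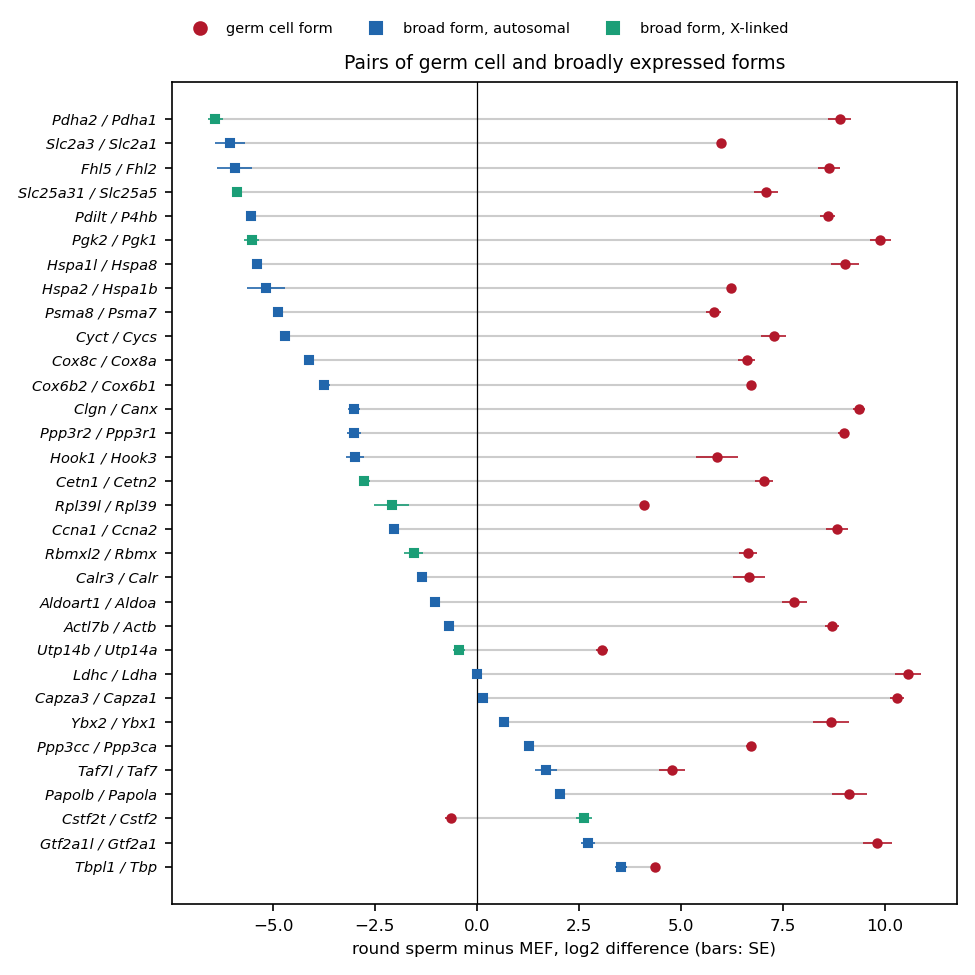
Differences, round sperm minus MEF on the log2 scale, for 32 pairs of a germ cell form (red circles) and its broadly expressed relative (squares, green where X-linked), with SE bars. In 21 pairs the germ cell form was higher and the broad form lower, so their points lie on opposite sides of 0.

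Meiotic genes were high in these cells, which have completed meiosis. Of 42 tested, 35 were higher, 3 were lower and 4 did not pass (median 5.04). MEF was near background in 27 of the 42. Sycp3, a core protein of the synaptonemal complex, had values of 12.17, 11.81 and 11.84 in round sperm and 4.91, 4.73 and 5.14 in MEF, at least 90.6-fold higher (7.02 ± 0.18). Syce1 and Syce3, of the central element, were at least 391-fold (8.98 ± 0.14) and 177-fold (8.75 ± 0.25) higher, Smc1b, a meiotic cohesin, at least 117-fold (8.38 ± 0.16), and Ccna1, the meiotic cyclin A, at least 177-fold (8.84 ± 0.27). The lower genes were Trip13 (-3.63 ± 0.14), which also serves the mitotic checkpoint, the recombination factor Mnd1 (-2.06 ± 0.31) and the kinase Cdk2 (-1.79 ± 0.16). Messages kept from spermatocytes and spermatocytes within the sort cannot be told apart in such bulk samples, nor can fewer cells of a kind and less RNA per cell in any comparison here. Stra8, the switch gene of meiotic entry, did not pass the filter on low values and was not tested.

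The piRNA pathway, which guards germ cells against transposons, was higher in all 21 genes tested of 24 listed (median 4.99). In 14 of the 21 MEF was near background, so these were tested through round sperm alone and could hardly be called lower. Mael, a protein of the germ granule, was at least 571-fold higher (11.11 ± 0.13). Rnf17, a tudor protein, was at least 139-fold (7.48 ± 0.16), Asz1 at least 28.5-fold (6.15 ± 0.28) and Tdrd12 at least 23.5-fold (5.95 ± 0.24) higher. Several of these were not absent from ES cells: Tdrd12 had means of 11.18 and 10.50 there and Rnf17 of 10.11 and 10.92. Ddx4, the helicase also called Vasa that marks germ cells, had values of 13.81, 13.24 and 13.14 in round sperm and 6.28, 6.19 and 6.32 in MEF, 141-fold higher (7.13 ± 0.18).

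Over all genes, 2592 were higher in round sperm with MEF near background. Of these, 1830 (70.6%) were near background in haploid and diploid ES cells too, and 497 (19.2%) stood above background in both. In 30 both ES means were at least 10.

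Markers of other cells of the testis are set beside the 36.3% higher and 39.3% lower over all genes tested. Of 22 tested spermatogonial genes, 9 (40.9%) were higher, 10 (45.5%) were lower and 3 did not pass, shares close to those over all genes. The median was 0.60. It changed sign with the filter at the 60th percentile (-1.98, with 5 of 15 higher). It also did so as the mean over probe sets (-1.38) and with the offset 4 times as large (-0.34). Dmrtb1, a regulator of the entry into meiosis, was at 13.71, 13.72 and 13.69 in round sperm and 5.21, 5.62 and 5.53 in MEF. The MEF values lie at the floor, so no fold is given. The other higher genes of the list were at 5.81 to 8.55 in round sperm. Zbtb16, a factor of spermatogonial stem cells, differed by 0.62 ± 0.33 and did not pass, and Gfra1, a receptor of the same cells, was lower (-3.28 ± 0.18). Kit, the receptor of differentiating spermatogonia, was at least 2.90-fold higher, at 6.97 ± 0.40 (SD). Ccnd2, Ccnd1 and Thy1 on this list are also fibroblast genes and were lower.

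The Sertoli cell list had 10 (52.6%) higher, 7 (36.8%) lower and 2 not passing of 19 tested genes. Its mean level was 6.54, 6.76 and 6.90 in round sperm against 6.57 to 6.71 in MEF. The transcription factors Sox9 (5.89 against 7.76) and Wt1 (4.89 against 6.27) were lower in round sperm, with Wt1 near background. The follicle-stimulating hormone receptor Fshr was at 6.09 against 4.71. The rises that passed were led by the cystatins Cst9 (4.40 ± 0.38) and Cst12 (3.71 ± 0.43). Amhr2 (8.60 against 5.44), Aard (7.93 against 5.19) and Cldn5 (7.66 against 5.58) also passed as higher. Of 8 tested Leydig cell genes, Cyp17a1, Fdx1 and Ptgds were higher, Hsd11b1 and Vcam1 were lower, and Star, the steroidogenic carrier, differed by -0.10 at 6.19 in round sperm. The mean level of the Leydig list was 7.13, 7.68 and 7.84 in round sperm and 7.21 to 7.50 in MEF. Cyp17a1, an enzyme of androgen synthesis, varied within the group, with 5.69, 7.33 and 7.60. The share of RNA from somatic testis cells in the round sperm was not tested.

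Of 14 tested genes of peritubular myoid and smooth muscle cells, 12 fell, 1 rose and 1 did not pass. The exception was Pln, a regulator of the calcium pump, at least 69.2-fold (7.47 ± 0.37), while Acta2, smooth muscle actin, was 78.0-fold lower (-6.29 ± 0.10). Of 20 tested genes of blood cells, macrophages and endothelium, 3 were higher, 12 were lower and 5 did not pass. The mean level of that list was 6.20 to 6.40 in round sperm and 7.43 to 7.62 in MEF. Macrophage genes went both ways. Lyz2, lysozyme, was at 12.03, 12.12 and 12.15 in MEF and 6.81, 6.39 and 6.41 in round sperm. Csf1r, the receptor of macrophage growth factor, was at 9.68 in MEF, Cd14 at 9.46 and Tyrobp at 7.89, while the pan-leukocyte gene Ptprc was at 6.59. C1qb, a complement component of macrophages, was higher in round sperm (7.28 against 5.26, at least 3.59-fold), as was the chemokine receptor Cx3cr1 (7.89 against 6.25, 3.13-fold). The part of macrophages among the MEF in these falls was not tested.

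Genes that make and bind the extracellular matrix were lower in round sperm, and Ccn2, Lox, Col5a2, Thbs1 and Bgn were 5 of the 15 largest falls. Col3a1, a fibrillar collagen, had values of 6.29, 5.56 and 5.07 in round sperm and 14.19, 14.22 and 13.98 in MEF, 360-fold lower (-8.49 ± 0.28). Col1a1, the main collagen of connective tissue, had values of 6.56, 6.32 and 6.66 against 12.97, 12.97 and 12.77, 84.0-fold lower (-6.39 ± 0.13). The MEF arrays lay close together in both genes, and no round sperm array came near them. Lox, the enzyme that crosslinks collagen, was at least 566-fold lower (-9.81 ± 0.26) and Col5a2 at least 545-fold (-9.76 ± 0.37).

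Of 42 tested genes of collagens and their processing, 36 fell, 5 did not pass and 1 rose (median -4.49). That one was Col16a1, a collagen that associates with fibrils, at 12.04, 12.68 and 12.64 against 10.28, 10.37 and 10.21, 4.49-fold higher (2.17 ± 0.17). Of 57 tested matrix glycoproteins, proteoglycans and proteases, 55 were lower and 2 did not pass, Lama2 at 0.49 and Hspg2 at -0.33 (median -5.13). None passed as higher by limma, and 1, Lama2, was higher at an unadjusted p under 0.05. Round sperm was near background in 24 of the 57, where a rise could hardly be called. Ccn2, a matricellular growth factor, was at least 554-fold lower (-9.87 ± 0.33), Thbs1, thrombospondin, at least 453-fold (-9.45 ± 0.40) and the proteoglycan Bgn 505-fold (-8.98 ± 0.49). Ccn2 was high in ES cells as well, with means of 14.00 in haploid and 14.10 in diploid lines. Other matrix genes had signal in ES cells too, with more spread among the diploid arrays. Col3a1 had ES means of 12.52 and 11.03, Lox of 11.53 and 10.30, and Col5a2 of 11.45 and 9.89. Those of Bgn were 10.10 and 8.96, and those of Col1a1 9.50 and 8.37. For these 5 genes the SD was 1.40 to 2.10 over the diploid ES arrays and 0.19 to 0.41 over the haploid ones. For Ccn2 the diploid SD was 0.12. The diploid means of the 5 genes thus average arrays that differed widely, and the 2 diploid lines are not given apart.

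The cytoskeleton of adhesion and contraction showed the lowest median of the 29 lists, -5.94, with 57 of 65 tested genes lower, 3 higher and 5 not passing. Vim, the intermediate filament of fibroblasts, had values of 6.78, 7.29 and 6.46 in round sperm and 15.18, 15.27 and 15.32 in MEF, 341-fold lower (-8.41 ± 0.19). Cav1, which coats caveolae, was at least 421-fold lower (-9.71 ± 0.28), and the tropomyosin Tpm4 at least 468-fold (-9.90 ± 0.27). The X-linked Msn, which ties actin to the membrane, was at least 337-fold lower (-9.43 ± 0.13). Not all actin genes fell: Actb, at 14.08, 14.33 and 14.52 against 14.85, 14.98 and 15.16, differed by -0.68 ± 0.12 and did not reach 2-fold, and Actg1 differed by -0.53. The 3 higher genes were Itga1, an integrin chain (3.36 ± 0.13), Lims2, an adhesion adaptor (1.74 ± 0.15), and Tln1, talin, on 1 of its 3 probe sets (4.39 ± 0.11). The other 2 probe sets of Tln1 were lower (-4.16 ± 0.27 and -2.28 ± 0.55).

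Of 73 tested fibroblast transcription factors and growth factor signalling genes, 64 were lower, 4 were higher and 5 did not pass (median -4.87). Prrx1, a mesenchymal homeobox factor, was at least 226-fold lower (-8.94 ± 0.18), the receptor Pdgfrb at least 260-fold (-8.58 ± 0.25) and the receptor kinase Axl at least 137-fold (-8.33 ± 0.32). Thy1, a surface marker of fibroblasts, had values of 5.53, 6.28 and 4.85 against 12.95, 12.82 and 12.92, 162-fold lower (-7.34 ± 0.32). The higher genes were Klf4 (1.76 ± 0.09), Six2 (1.57 ± 0.24), Klf2 (1.26 ± 0.16) and, on 1 of 4 probe sets, Igf1 (1.56 ± 0.22). Klf4, a factor that both spermatids and ES cells express, stood at 13.35, 13.14 and 13.11 in round sperm and 11.38, 11.43 and 11.51 in MEF.

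Secretion and innate immunity fell with them. Of 42 tested secretory pathway and lysosome genes, 30 were lower, 2 were higher and 10 did not pass (median -3.0). Ctsb, a lysosomal protease, was at least 155-fold lower (-7.88 ± 0.41), P4hb, which folds collagen among other proteins, 46.7-fold (-5.55 ± 0.13) and Serpinh1, the collagen chaperone, 135-fold (-7.08 ± 0.30). The higher genes, Spcs1 (1.25 ± 0.07) and Spcs2 (1.60 ± 0.14), encode signal peptidase subunits, and Spcs2 was lower on its other probe set (-2.40 ± 0.09). Of 29 tested interferon and antigen presentation genes, 22 were lower, 2 were higher and 5 did not pass (median -2.14). Ifitm3, an antiviral membrane protein, was at least 342-fold lower (-8.66 ± 0.26) and B2m, the light chain of class I molecules, 40.5-fold (-5.34 ± 0.13). Mx1, an antiviral GTPase, was higher instead, at 8.48, 8.23 and 8.58 against values near background in MEF, at least 7.93-fold. The chemokines Ccl2 and Ccl7, which fibroblasts release, were 414-fold (-8.69 ± 0.39) and at least 287-fold (-9.65 ± 0.15) lower.

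**Figure D4:**
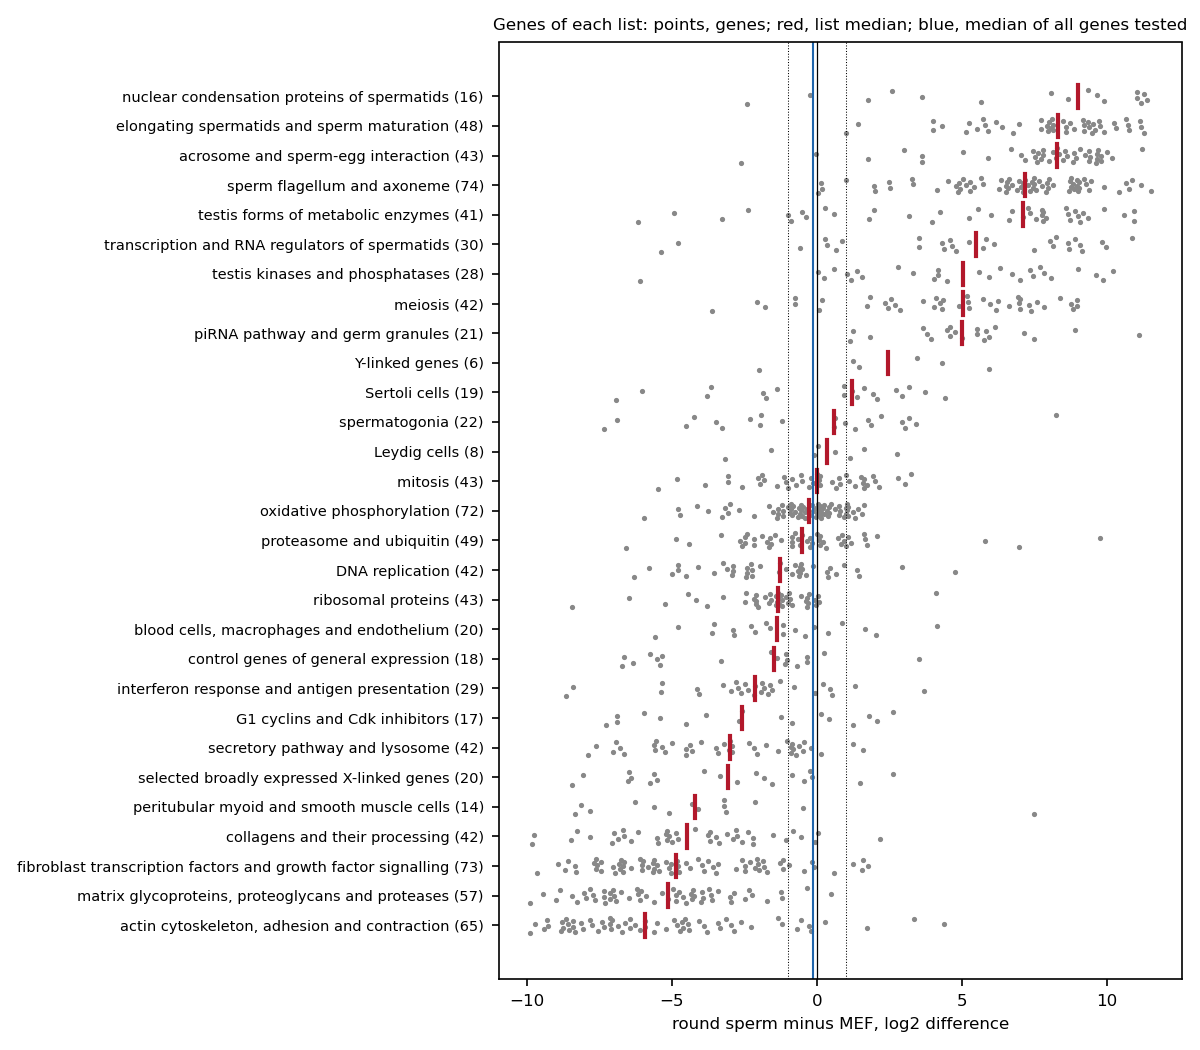
Differences, round sperm minus MEF on the log2 scale, of the tested genes in 29 lists (grey points, numbers of genes in parentheses), with the list median in red and the median of all genes tested in blue; dotted lines mark 2-fold. Lists of spermatid structures have medians up to 9.0, and the adhesion, matrix, growth factor and collagen lists have medians from -4.49 to -5.94.

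Of 42 tested DNA replication genes, 23 were lower, 4 were higher and 15 did not pass (median -1.28). The licensing factor Cdt1 was 78.5-fold lower (-6.29 ± 0.42), the nucleotide enzyme Tk1 at least 33.1-fold (-5.79 ± 0.41) and the helicase subunit Mcm3 32.1-fold (-5.01 ± 0.28). The higher genes were Pold3 on 1 of 3 probe sets (4.77 ± 0.17), Rfc2 (2.94 ± 0.21), Rfc4 (1.45 ± 0.12) and Gins4 (1.38 ± 0.10), some of which also act in repair. Of 17 tested G1 regulators, 10 were lower, among them the p53 target Cdkn1a (6.56, 6.23 and 7.02 against 13.46, 13.46 and 13.60), Ccnd2, 118-fold lower (-6.88 ± 0.24), and Cdk4, 61.7-fold lower (-5.95 ± 0.24). Myc, the growth regulator, was near background at 3.72, 3.84 and 4.10 against 11.17, 11.14 and 11.20, at least 50.8-fold lower. The inhibitors Cdkn2c (2.62 ± 0.09) and Cdkn2d (1.23 ± 0.12), both known from male germ cells, were higher, as were Rbl2 and, on 1 of 3 probe sets, Mdm2.

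Of 43 tested mitotic genes, 14 (32.6%) were higher, 14 (32.6%) were lower and 15 did not pass, with a median of 0.00. These shares are close to the 36.3% and 39.3% over all genes tested. The cyclin Ccnb2 was at 13.73, 13.94 and 13.69 in round sperm against 10.75, 10.72 and 10.81, 8.15-fold higher (3.03 ± 0.09). The kinase Aurka (2.80 ± 0.12), the phosphatase Cdc25c (2.13 ± 0.14) and the transcription factor Foxm1 (2.02 ± 0.12) were also higher. The proliferation marker Mki67 was 14.3-fold lower (-3.84 ± 0.10), the checkpoint protein Mad2l1 28.5-fold (-4.83 ± 0.21) and the centromeric histone Cenpa 44.9-fold (-5.49 ± 0.33). Because round sperm alone were gated by DNA content, gate and cell type cannot be told apart here. As the mean over probe sets, 8 of the 43 were higher.

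Lists of general upkeep differed in their counts. Of 43 tested ribosomal protein genes, 28 fell, 14 did not pass and 1 rose (median -1.35). That one was Rpl39l, the autosomal copy used in germ cells, at 14.73, 14.65 and 14.81 against 10.67, 10.60 and 10.64, 17.1-fold (4.09 ± 0.07). Its X-linked parent Rpl39 was lower (-2.09 ± 0.42), and the X-linked Rps4x fell furthest of the list, 345-fold (-8.43 ± 0.19). Of 72 tested oxidative phosphorylation genes, 43 did not pass, 19 (26.4%) were lower and 10 (13.9%) were higher (median -0.28), the higher ones between 1.01 and 1.64. With quantile normalization 5 of the 72 were higher, and 5 when the test was made against a 2-fold change. Ndufa6, a subunit of respiratory complex I, rose 3.11-fold (1.64 ± 0.06). Of 18 tested genes often used as controls of expression, 13 were lower, 4 did not pass and 1, Tbp, was higher (3.53 ± 0.14). All arrays were scaled to the same trimmed mean signal, so these falls are in share of signal. The amount of RNA per cell was not measured.

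The X chromosome is known to be silenced in male meiosis and to stay largely repressed afterwards. Of 476 tested X-linked genes, 62.4% were lower and 22.9% higher in round sperm, against 38.5% lower and 36.8% higher of 14020 autosomal genes. X-linked genes had a median difference of -2.00 and autosomal genes one of -0.07, which makes the gap -1.94. Taken for each round sperm array against the MEF mean, the gap was -1.988, -1.944 and -2.035. It narrowed to -1.03 when genes with low values were not filtered out. On autosomes the median of a chromosome ran from -0.56 to 0.23, so the X chromosome lay outside their range.

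Housekeeping genes of the X chromosome were among the strong falls. Hprt, of purine salvage, had values of 6.31, 6.98 and 6.75 in round sperm and 12.44, 12.47 and 12.42 in MEF, 54.3-fold lower (-5.76 ± 0.17). Ddx3x, an RNA helicase, was 267-fold lower (-8.06 ± 0.12) and Eif2s3x, a translation initiation factor, 88.7-fold (-6.47 ± 0.40). Of 20 tested genes of a list of broadly expressed X-linked genes, 14 were lower, 2 were higher on 1 of their probe sets (Cstf2 and Tspan6) and 4 did not pass (median -3.06). Other X-linked genes went the other way. Tsga8, a spermatid gene, was at least 718-fold higher and Cypt1, of a spermatid gene family, at least 227-fold (9.49 ± 0.23), beside Akap4. Cypt1 was chosen after its value was seen.

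Xist, the RNA that coats the silenced X chromosome of female cells, was 91.2-fold lower (-6.51 ± 0.12), at 6.24, 6.38 and 6.14 in round sperm and 12.68, 12.78 and 12.82 in MEF. Y-linked genes were also measured in MEF: Eif2s3y was at 9.21, 9.35 and 8.62 and Kdm5d at 7.46, 7.25 and 6.51. The MEF arrays thus held RNA of Xist and of Y-linked genes together, and the labels do not give the sex of the embryos. Of all 8 Y-linked genes tested, 7 were higher in round sperm and 1, the demethylase Kdm5d, was lower (-1.98 ± 0.32); of the 6 in the Y-linked list, 5 were higher. Uba1y, a ubiquitin-activating enzyme of the testis, was at least 34.7-fold higher (5.94 ± 0.19) and Zfy2, a transcription factor of the male germline, at least 8.81-fold (4.32 ± 0.34). Several Y-linked genes have copies or X-linked relatives, so their probe sets may be shared.

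**Figure D5:**
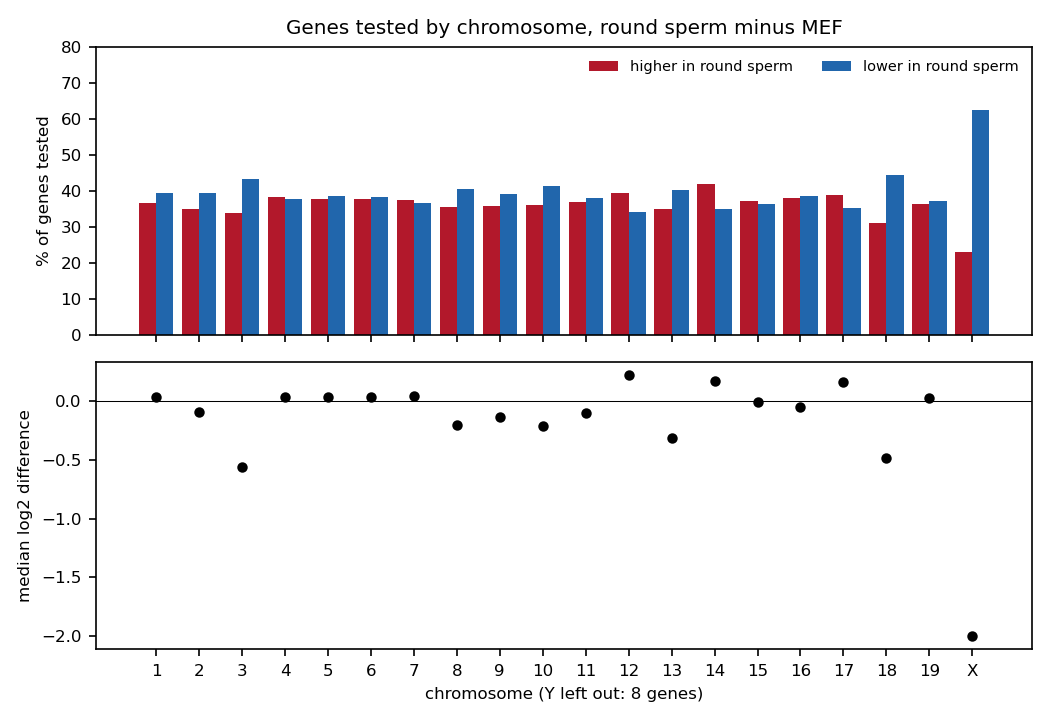
Percent of tested genes higher (red) and lower (blue) in round sperm for each chromosome, and below it the median log2 difference, round sperm minus MEF. The X chromosome has 62.4% lower and 22.9% higher genes and a median of -2.00, while autosomal medians lie between -0.56 and 0.23.

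Promoters of the genes that differed were compared by sequence, in the 300 bases from 250 before to 50 after each RefSeq start (GRCm38.p6). Of the genes tested, 11713 had at least 1 such sequence, and a gene counted as holding a motif if any of its sequences did, on either strand. TATAAA alone was searched only in the direction of the gene. The 11 motifs were chosen with the expression values known, so the shares are a description with no test. The full CRE, TGACGTCA, stood in 3.24% of all promoters, in 3.27% of those of higher genes, in 2.98% of those at least 64-fold higher and in 2.83% of those of lower genes. Its shorter core TGACGT was in 12.1%, 11%, 8.56% and 12.4% and the variant TGACTTCA in 1.45%, 2.06%, 1.99% and 1.09%. The full element was about as frequent in promoters of genes that rose as in all.

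The open form TGANNTCA, which includes the full CRE and the variant, was in 13.0% of all promoters, 16% of higher, 24.8% of at least 64-fold higher, 10.8% of lower and 9.58% of at least 64-fold lower genes. It was added after the full CRE had shown no such difference and after the Tnp1 promoter had been read. The same letters in another order, TCANNTGA, were in 8.15%, 8.51%, 8.68%, 7.73% and 10.4%. Base composition moved with expression as well: the median GC content was 57.3% in promoters of all higher genes, 52.7% where genes were at least 64-fold higher and 61.5% where they were lower. CpG-rich promoters made up 53.1%, 29.9% and 72.2% of these groups, against 65.0% of all, and the GC box GGGCGG was in 52.0%, 33.1% and 71.2%, against 63.0% of all. The part of base composition in the TGANNTCA shares was not tested. The remaining motifs, TATAAA, the AP-1 site TGANTCA, the CArG box and CCAAT, were in 6.58%, 8.31%, 1.74% and 43.1% of promoters of genes at least 64-fold higher against 6.17%, 6.72%, 1.58% and 42.6% of all. In promoters of genes at least 64-fold lower they were in 9.30%, 9.86%, 3.94% and 42.0%.

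Of the 15 largest rises, 14 had a promoter sequence and 5 of these held TGANNTCA, against 2 of 10 of the 15 largest falls with one. The share over all genes with a promoter sequence was 13.0%. Prm1 and Tnp1 are themselves among the 5. Because the open form was added after the Tnp1 promoter had been read, the count is no independent support. Akap3 and Meig1 are shown with 28 bases around the match, to set beside Prm1 and Tnp1, in the direction of the gene (Akap3 at chr6:126853066-126853093 on the plus strand, 22 bases before the start; Meig1 at chr2:3418626-3418653 on the minus strand, 46 bases before it). Capitals again mark the matching letters.
Akap3: atagaaacagTGATGTCActagctgcaa
Meig1: atgtgagaacTGAGTTCAgaatacagtc
Akap3 carries the same letters as Tnp1 at its match, whereas Meig1 differs in the open positions.

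The X box, a motif bound by RFX factors and searched as GTTGCC, any 2 bases, GG, any base and AAC, was rarer and more unevenly spread. It was found in the window of 61 of 11713 genes (0.521%), of which 42 were higher (0.982% of 4276) and 8 lower (0.174% of 4594). It stood in the window of 12 of 806 genes at least 64-fold higher (1.49%) and of 0 of 355 at least 64-fold lower. Some of these matches, such as that of Ssmem1, lie after the start. The 4 examples below, chosen after their values were seen, show the motif in capitals within 30 bases, on the strand where it reads GTTGCC first. They lie at chr2:181219979-181220008 (minus), chr12:72185022-72185051 (minus), chr6:34780403-34780432 (plus) and chr19:42086377-42086406 (minus).
Fndc11: gcctacttGTTGCCATGGGAACcactggcc
Ccdc175: gcgtcgtcGTTGCCCTGGCAACagtgttcc
Agbl3: gtacagccGTTGCCCTGGCAACaagcggcc
Morn4: tgctcgcgGTTGCCTAGGTAACagccaatg
Fndc11 had values of 13.32, 13.55 and 13.45 in round sperm and was near background in MEF, at least 256-fold higher (9.41 ± 0.31). Ccdc175, a coiled-coil protein, was at least 124-fold higher (8.64 ± 0.26). Agbl3, an enzyme that trims glutamate chains from tubulin, rose 49.4-fold (5.63 ± 0.20), and Morn4 rose 22.7-fold (4.50 ± 0.12). A match in letters is a description and not a binding site.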

How the data were processed

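RNA of 21 samples was labelled with the 3′ IVT Express kit and hybridised to Affymetrix mouse arrays, per the labels' protocols. The authors computed signals with MAS5, per the submitters' processing notes, with no version given, and deposited them as log2 values, 1 per probe set. The mean signal, with 2% of values trimmed at each end, was 500 in each array. A difference therefore compares shares of an array's signal and not amounts of RNA per cell. Arrays carry no read depth, so their number limits the precision. The deposited log2 values were turned back to signals, an offset of 9.70 signal units was added and log2 taken again. Each gene was read from its probe set with the highest mean of the 2 group means. A gene was kept where all 3 arrays of a group were above their 40th percentile. Only the 6 round sperm and MEF arrays entered the fit, with limma 3.58.1 in R 4.3.3 (trended, robust eBayes) and Benjamini-Hochberg adjustment over 14531 genes. All adjusted p-values are from this limma fit. On simulated data the fit recovered 99 of 100 genes changed by 1.5 (log2) and 100 of 100 changed by 3, and called 4 unchanged genes. The changed genes were few, had means above the near-background levels, and both groups were given the same spread. The simulation therefore does not cover genes near background, unequal spreads or a share of 75.6% passing, as in these data. A lower-bound fold sets the brighter group's mean against the mean, over the dim group's arrays, of the gene's value or the array's 40th percentile, whichever was higher.

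The members, lists, pairs and motifs were chosen with earlier results of these data known. Genes named are the 15 largest rises and falls, up to 6 per list and direction, sets of 5 or fewer in the lesser direction, both members of each pair, and a set of key genes. Others were named after their values were seen: Rfx2, Cdyl, Cypt1, the X box genes, some cell type markers and genes that did not pass. Alternatives changed the offset, filter, centring, probe set choice, moderation, weights and threshold, added a replicate block, or left out 1 array. Promoters come from RefSeq. Figures used Python 3.11.15 and matplotlib 3.10.9.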

Additional observations from a re-analysis of the deposited data

How the results depend on the processing

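Under the alternatives run, 5188 to 5489 genes were higher and 5604 to 5741 lower when 1 array was left out, and every other count of calls stayed within 1.5 times of 5281 and 5709. The split moved most with quantile normalization, to 5766 higher and 5139 lower. Over 299 named genes, 5914 values kept their call or stayed without one, 27 lost the call and 1 gained it. A further 15 changed sign with a call in the main or the alternative fit. Sign changes of genes without a call in either fit are among the 5914 and are not listed below. With the mean over probe sets the sign changed for Cstf2 (-0.64), Gtf2a1 (-0.20), Igf1 (-0.83), Mdm2 (-0.07), Spcs2 (-0.40), Tln1 (-0.68), Tspan6 (-1.5) and Ubqln1 (0.32). With the probe set of highest mean over 21 arrays it changed for Cstf2 (-3.73), Gtf2a1 (-2.11), Kif2c (-1.73), Mdm2 (-0.91) and Spcs2 (-2.40). It changed for Ubqln1 (1.55) without probe sets that may cross-hybridise and for Mdm2 without round sperm replicate 3 (-0.72 to 1.9 with 1 array left out). These genes have probe sets of opposite sign or a choice of probe set that changed, and the cause was not tested further. The gap between X-linked and autosomal medians was -2.16 with no offset, -1.56 with the offset 4 times as large, -1.03 with no filter, -2.27 with the filter at the 60th percentile, -1.88 with quantile normalization, -1.60 as the mean over probe sets, -2.01 with the highest mean over 21 arrays, -1.99 without cross-hybridising probe sets, and -2.02 to -1.87 with 1 array left out. The replicate numbers did not pair the samples: same-numbered arrays had deviations correlated at 0.0444, 0.00775 and 0.0168. With the replicate number as a block, 5285 genes were higher and 5722 lower, and no named gene changed its call. Probe sets of low signal and the top of the signal range limit the sizes.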

Other observations

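Probe sets of the same gene often moved in opposite directions between round sperm and MEF. Of 4381 genes with at least 2 probe sets past the threshold, 715 (16.3%) had probe sets both higher and lower. By the same rule it was 42 of 2307 (1.82%) for MEF minus the diploid ES line CS1-1 and 43 of 2067 (2.08%) for MEF minus the haploid line AH129-5. These comparisons share the MEF arrays, and the shares are given with no test. The examples were chosen after their values were seen. One probe set of Samd4, an RNA-binding regulator of translation, was at 13.23 in round sperm and 7.44 in MEF, another at 6.45 and 11.53. Sgms2, a sphingomyelin synthase, had differences of 4.94 and -4.94, Pias2, a SUMO ligase, of 4.22 and -5.87, and the phosphatase Ppm1b of 4.25 and -4.78. Among the 299 named genes, 12 had probe sets of both directions.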
